A study of Mus musculus with 4 samples.

Results

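Teneurins (Tenm1, Tenm2, Tenm3 and Tenm4), latrophilins (Adgrl1, Adgrl2 and Adgrl3) and Flrt proteins (Flrt1, Flrt2 and Flrt3) are cell-surface proteins that bind one another between neurons. The accessible regions of their 10 genes were described in Hoxa5-deficient and control motor neurons of the mouse. Peak intervals of the 4 deposited lists were merged wherever they overlapped by 1 bp, which gave 199576 regions. Each region was given to the protein-coding gene body that held its midpoint, or otherwise to the nearest body within 100 kb. The 10 genes held 776 of the 199576 regions, 694 inside their bodies and 82 outside, and the inside and outside regions are given apart.

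Teneurins are large transmembrane proteins whose extracellular part binds latrophilins, a group of adhesion G-protein-coupled receptors, and can also bind teneurins on the facing cell. Flrt proteins carry leucine-rich repeats, bind latrophilins on one side and Unc5 guidance receptors on another, and can act as attractive or repulsive cues. In the developing nervous system these contacts are known for guiding axons, sorting cells and choosing synaptic partners.

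The series measured chromatin accessibility by ATAC-seq (Tn5 transposase inserts sequencing adapters where DNA is open) in neurons sorted by fluorescence from the cervical spinal cord at embryonic day 12.5. The tested motor neurons are labelled deficient in Hoxa5, a homeodomain transcription factor of cervical motor neurons, and littermates served as controls. Both groups carried the ChAT::GFP reporter, a transgene that labels cholinergic neurons, and each group had 2 libraries that the submitters call biological replicates. The labels do not say which part of Hoxa5 was removed, whether other alleles were present, the sex of the embryos or how many embryos went into a library. The p-value below comes from exchanging the group labels among these libraries alone, and it cannot fall below 0.333.

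Hoxa5 itself, with 1 kb on each side, held 2 regions in each of the 4 libraries, which checks nothing about the labels because the deleted part is not known. Hoxa5-deficient libraries 1 and 2 had a peak in 122736 and 133896 regions, against 109746 and 106783 in control libraries 1 and 2. Read depth is not stated; the lowest local background behind a peak, which grows with depth, came to 5.14 and 6.06 tags in the Hoxa5-deficient libraries and 5.43 and 4.39 tags in the controls. Hoxa5-deficient library 2 had the highest background and the most regions, and Hoxa5-deficient library 1 had more regions than control library 1 at a lower background. All 9 motor neuron markers had a peak in all 4 libraries, and so did 8 of 8 neural progenitor, 7 of 7 spinal interneuron, 5 of 6 sensory neuron and neural crest and 4 of 5 muscle and mesoderm markers. Endothelial markers had a peak in every library for 1 of 3 genes and blood markers for 2 of 3, and Gata1 had none in any library. The summed regions of the motor neuron markers were 38 and 43 in Hoxa5-deficient libraries and 38 and 40 in controls. Those of the progenitor markers were 21 and 25 against 32 and 28, those of the interneuron markers 29 and 30 against 37 and 30, and those of the muscle and mesoderm markers 34 and 34 against 42 and 43. The sensory and crest markers had 24 and 37 against 27 and 28, the endothelial markers 2 and 5 against 4 and 3, and the blood markers 8 and 8 against 11 and 8. Their part in the results below was not tested. An open region in fewer cells and a less open region in every cell cannot be told apart in these bulk libraries.

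A peak lay at some of the listed starts of these genes in every library and at others in none, and 9 of 12 start windows read the same in all 4 libraries. RefSeq lists 12 start windows for 9 of the genes on GRCm38.p6 (the coordinates of mm10), each from 250 bases before to 50 bases after a start; none was listed for Flrt1. A peak overlapped 6 of the windows in all 4 libraries, namely those of Flrt3, Flrt2, Adgrl1 and all 3 of Adgrl3, and overlapped none of the single windows of Tenm1, Tenm2 and Tenm3 in any library. Of the remaining windows, the first of Tenm4 had a peak in Hoxa5-deficient library 2 and control library 2, the second in control library 2 alone, and that of Adgrl2 in control library 1 alone. Over all 32851 listed windows, 45.3% had one in every library and 48.1% in no library. Of the 12, 5 windows are shown: 3 with a peak in every library, 1 with none and that of Adgrl2. They were chosen because they run from 70.0% to 38% GC and between them hold matches to each searched motif. A listed window is not the only possible start of a gene, and strong regions at the 5′ ends of Tenm2 and Adgrl2 lay far from their listed windows, as given below. In all of them capitals mark matches to 5 searched motifs, on either strand: TAATTA (the homeodomain core), TGATNNAT (a paired Hox and Pbx site), GGGCGG (the GC box), TATAAA (the TATA box) and TGACGTCA (the cAMP response element). No match overlapped another in the 5 windows shown.

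Flrt3, peak in all 4 libraries, minus strand, chr2:140671427-140671726: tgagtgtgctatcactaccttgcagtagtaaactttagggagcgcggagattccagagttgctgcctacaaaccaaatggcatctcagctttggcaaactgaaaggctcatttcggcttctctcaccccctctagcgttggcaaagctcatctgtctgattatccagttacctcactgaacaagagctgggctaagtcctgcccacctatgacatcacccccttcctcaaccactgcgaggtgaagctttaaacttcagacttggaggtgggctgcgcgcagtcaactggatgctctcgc
Adgrl1, peak in all 4 libraries, plus strand, chr8:83899848-83900147: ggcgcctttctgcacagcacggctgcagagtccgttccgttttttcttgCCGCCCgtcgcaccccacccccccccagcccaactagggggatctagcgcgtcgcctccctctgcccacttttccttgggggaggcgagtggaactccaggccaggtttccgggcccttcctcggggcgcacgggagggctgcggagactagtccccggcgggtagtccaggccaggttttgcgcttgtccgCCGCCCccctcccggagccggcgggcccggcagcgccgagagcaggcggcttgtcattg
Adgrl3, middle window, peak in all 4 libraries, plus strand, chr5:81020502-81020801: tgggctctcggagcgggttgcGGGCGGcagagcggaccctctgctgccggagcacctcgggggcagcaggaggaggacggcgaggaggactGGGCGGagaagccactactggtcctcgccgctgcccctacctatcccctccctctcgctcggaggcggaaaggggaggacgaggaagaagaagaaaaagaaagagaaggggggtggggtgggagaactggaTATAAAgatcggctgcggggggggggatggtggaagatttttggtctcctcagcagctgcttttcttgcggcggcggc
Adgrl2, peak in control library 1 alone, minus strand, chr3:148954586-148954885: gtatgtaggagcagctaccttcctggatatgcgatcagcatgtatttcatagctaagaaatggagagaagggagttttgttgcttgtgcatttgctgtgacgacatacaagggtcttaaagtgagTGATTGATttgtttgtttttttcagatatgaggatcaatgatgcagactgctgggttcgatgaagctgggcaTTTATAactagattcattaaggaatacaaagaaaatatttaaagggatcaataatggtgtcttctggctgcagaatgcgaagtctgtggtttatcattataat
Tenm3, no peak in any library, minus strand, chr8:48674641-48674940: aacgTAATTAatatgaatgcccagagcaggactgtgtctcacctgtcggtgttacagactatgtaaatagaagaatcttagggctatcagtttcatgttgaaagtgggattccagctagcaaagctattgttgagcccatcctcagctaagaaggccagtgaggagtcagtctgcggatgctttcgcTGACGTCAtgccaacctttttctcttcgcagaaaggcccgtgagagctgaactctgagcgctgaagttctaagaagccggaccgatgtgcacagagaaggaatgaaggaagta

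The windows of Adgrl1 and Adgrl3 were rich in G and C. Adgrl1 had 70.0% GC and 28 CpG dinucleotides, and the windows of Adgrl3 had 75.3%, 64.7% and 58.7% GC with 40, 21 and 20 CpG. Those of Flrt2 and Flrt3, also with a peak in every library, had 55.3% and 51.3% GC with 14 and 8 CpG. Among the windows with no peak, Tenm1 had 27.0% GC and 0 CpG, Tenm2 40% and 2, and Tenm3 47.3% and 10. Tenm4 had 52.0% and 52.3% GC with 6 and 12 CpG, and Adgrl2 had 38% with 4. Across the genome the median was 62.0% GC and 21 CpG for windows with a peak in all 4 libraries, and 46.7% and 3 for windows with none. The 10 genes did not keep this order throughout, since Tenm3 had no peak at 10 CpG and Flrt3 had one in every library at 8. The GC box, the letters GGGCGG, was in all 3 Adgrl3 windows and in that of Adgrl1 and in none of the others. It was in 35.7% of all windows, in 66.0% of those with a peak in all 4 libraries and in 8.68% of those with no peak. Homeodomain letters were rarer in windows with a peak. TAATTA was in 5.29% of all windows, 2.48% of those with a peak in all 4 libraries and 7.63% of those with none, and among the 12 windows only that of Tenm3 held it. TGATNNAT was in 8.85%, 3.83% and 13.4% of the same 3 sets, and among the 12 only the Adgrl2 window held it. The TATA box letters were in 13.6%, 6.15% and 20.7%. There were 4 matches on either strand in the Tenm1 window, some of them overlapping, 1 in the Adgrl2 window and 1 in the middle Adgrl3 window. The cAMP response element, in 1.79%, 3.23% and 0.563%, was found once, in Tenm3. Such a match is a description of the letters and not of a bound factor, and its absence from a window says only that these letters are not there.

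To compare strength between libraries, every region present in all 4 of them was ranked within each library by its highest −log10 p, the peak caller's own value for a summit. The rank is given as a percentile from 0 to 100 over the same 65789 regions in each library. A region was called higher or lower in Hoxa5-deficient neurons where both of its percentiles lay beyond both control percentiles and the group means were 10 points or more apart. This rule is not a test, and with 2 libraries against 2 no exact permutation test over libraries can give a two-sided p below 0.333.

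The highest-ranked region of each gene differed by less than 10 points between the group means, apart from that of Tenm1. The region at the Flrt3 start (chr2:140671055-140671744) stood at percentiles of 95.9 and 94.9 in Hoxa5-deficient libraries and 95.1 and 95.6 in controls. The Tenm3 region at chr8:48554864-48556217, which lies 967 kb into the gene, stood at 90.8 and 91.4 against 90.5 and 91.8. For Tenm4 it was chr7:96209707-96211188, 483 bp from the second listed start, at 80.7 and 81.0 against 77.6 and 78.3. The groups overlapped for Flrt3 and Tenm3 and lay close together for Tenm4. Tenm1, the X-linked teneurin, had no strong region. Its highest, chrX:43429961-43431076, lies 1.35 kb outside the 5′ end of the body and stood at 61.2 and 54.3 in Hoxa5-deficient libraries against 50.9 and 42.0 in controls, which met the rule for higher with a mean difference of 11.3 points.

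**Figure D1:**
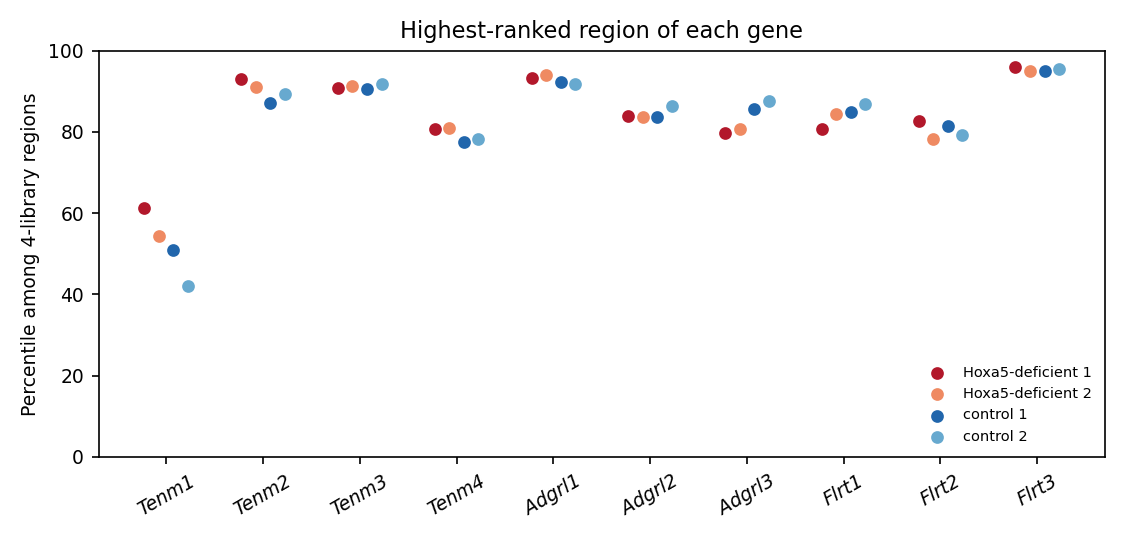
Percentile of the highest-ranked region of each gene among the 65789 regions with a peak in all 4 libraries; each point is 1 library, Hoxa5-deficient in reds and control in blues. For 9 of the 10 genes the points lie near one another and above 75, and those of Tenm1 run from 61.2 to 42.0.

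Inside the 10 bodies, Hoxa5-deficient libraries 1 and 2 had 420 and 457 regions with a peak, against 351 and 338 in control libraries 1 and 2. Both Hoxa5-deficient libraries had more than either control. These were 0.342% and 0.341% of all regions of the Hoxa5-deficient libraries (exact Clopper-Pearson 95% intervals 0.310% to 0.376% and 0.311% to 0.374%) and 0.320% and 0.317% of those of the controls (0.287% to 0.355% and 0.284% to 0.352%). The group means of 0.342% and 0.318% differed by 0.0236 percentage points, with an exact two-sided permutation p of 0.333, the smallest that this design allows. Intervals here and below cover counting error only. Regions inside all bodies of 150 kb or more, a size that the 4 teneurins, Adgrl2 and Adgrl3 share, made up 25.5% and 25.5% of the Hoxa5-deficient lists and 23.4% and 24.1% of the control lists. The covered length inside the 10 genes was 189.9 and 209.9 kb in Hoxa5-deficient libraries and 142.0 and 139.7 kb in controls. Over the whole lists it was 62.7 and 68.1 Mb against 52.3 and 50.9 Mb. Of all bodies of 150 kb or more, peaks covered 2.94% and 3.23% against 2.22% and 2.21%.

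**Figure D2:**
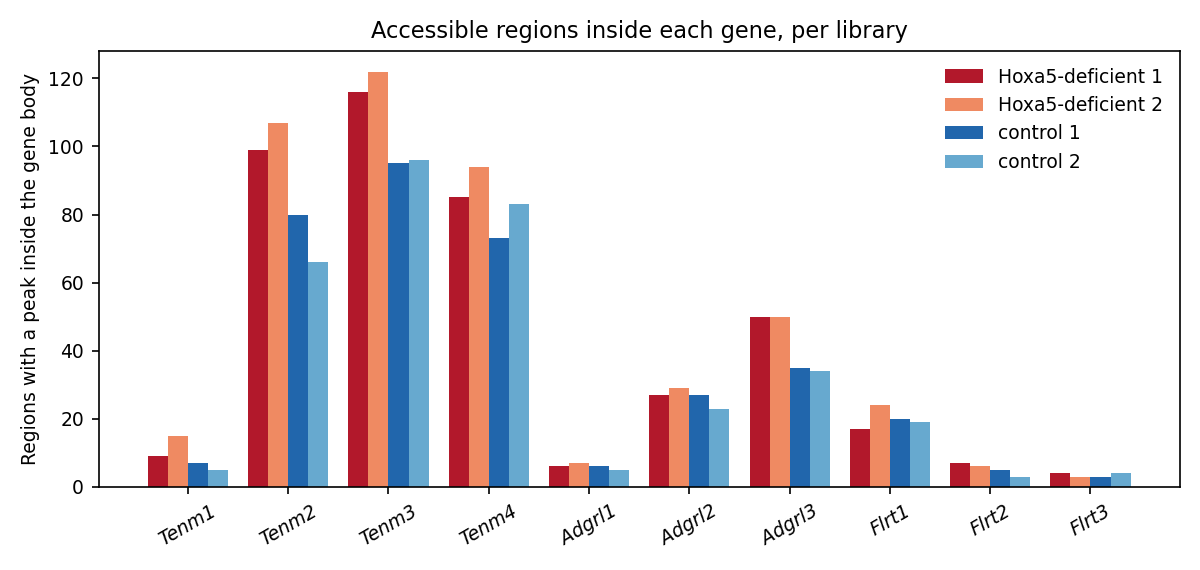
Number of regions with a peak inside each gene body, 1 bar per library, Hoxa5-deficient libraries in reds left of the controls in blues. For the 4 teneurins, Adgrl3 and Flrt2 both Hoxa5-deficient bars stand above both control bars; for Flrt1 Hoxa5-deficient library 1 has the lowest of the 4 values, 17.

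Among the 694 inside regions, 179 had a peak in all 4 libraries, 90 in 3, 85 in both Hoxa5-deficient libraries and no control (mutant-only), 23 in both controls and no Hoxa5-deficient library (control-only), 47 in 1 library of each genotype and 270 in a single library. Mutant-only regions were 12.2% of the inside regions (exact 95% interval 9.90% to 14.9%), beside 10.3% of all regions, 9.11% of those inside any protein-coding body and 12.5% of those inside bodies of 150 kb or more. Control-only regions were 3.31%, beside 3.42%, 3.4% and 3.43% in the same 3 sets. Regions with a peak in 1 library of each genotype were 4.41%, 4.41% and 4.64% of those sets, and regions shared by all 4 libraries were 33.0%, 35.1% and 28.1%, beside 25.8% here. Both the mutant-only and the control-only shares of the 10 genes were thus near those of long genes in general. There were 3.70 mutant-only regions for each control-only one in the 10 genes, 3.02 over all regions and 3.63 in bodies of 150 kb or more. When the lists were cut to equal numbers of peaks by strength, the counts became 52 mutant-only and 36 control-only, or 8.51% and 5.89%, beside 9.44% and 5.7% in long bodies. With a stricter peak threshold, −log10 q of 5 or more, they were 68 and 16, or 20.8% and 4.89%. Long bodies then had 18.1% and 4.45%, and all regions 13.8% and 4.37%. Leaving out Hoxa5-deficient library 1 or 2 gave 172 and 156 mutant-only and 34 and 39 control-only regions, and leaving out control library 1 or 2 gave 118 and 118 mutant-only and 80 and 92 control-only regions, because a class then needs a peak in fewer libraries or its absence from fewer. Summed over the 10 genes, mutant-only regions outnumbered control-only ones under each of these settings. The same order held over all regions and in long bodies each time, so it is not particular to the 10 genes. Over all regions the shares were 7.78% and 5.64% with equal numbers of peaks. They were 25.4% and 5.43% without Hoxa5-deficient library 1 and 21.7% and 5.89% without library 2. Without control library 1 they were 14.8% and 13.1%, and without control library 2 15.1% and 14.6%.

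Outside the bodies, 82 regions within 100 kb included 28 in all 4 libraries, 7 in 3, 11 mutant-only, 3 control-only, 5 in 1 library of each genotype and 28 in a single library. Over all regions outside bodies and within 100 kb, 9.24% were mutant-only and 3.69% control-only, beside 13.4% and 3.66% for these genes; 34.0% were shared by all 4 libraries and 4.59% had a peak in 1 of each genotype. Adgrl2 had 27 of the 82, Tenm4 16, Tenm3 10, Adgrl1 and Flrt2 8 each, Tenm2 and Adgrl3 6 each and Tenm1 1. The mutant-only ones were 4 of Adgrl2, 3 of Flrt2, 2 of Tenm3 and 2 of Adgrl3, and the control-only ones 2 of Adgrl2 and 1 of Tenm4. Flrt1 and Flrt3 had none outside, since Flrt1 lies inside the body of Macrod1 and Flrt3 inside that of Macrod2. Regions that the smaller gene bodies hold were given to Flrt1 and Flrt3, and nothing in the lists tells which gene such a region serves.

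Teneurins held most of the regions. Tenm3, known for matching pre- and postsynaptic cells in visual and hippocampal circuits, had 116 and 122 regions with a peak in Hoxa5-deficient libraries and 95 and 96 in controls, over a body of 1297.2 kb on chromosome 8. Tenm2, a ligand of latrophilins at synapses, had 99 and 107 against 80 and 66 over 1230.4 kb on chromosome 11. Tenm4, best known for its part in oligodendrocyte maturation, had 85 and 94 against 73 and 83 over 739.9 kb on chromosome 7. For all 3 both Hoxa5-deficient libraries lay above both controls, by only 2 regions for Tenm4. Tenm1 had 9 and 15 against 7 and 5 over 901.3 kb of the X chromosome, the sparsest of the 10 genes, with 0.999 and 1.66 regions per 100 kb in Hoxa5-deficient libraries and 0.777 and 0.555 in controls. All protein-coding bodies together had 6.27 and 6.85 against 5.86 and 5.62 regions per 100 kb. The length covered in Tenm2 was 44.7 and 50.8 kb in Hoxa5-deficient libraries against 32.4 and 24.6 kb in controls, and in Tenm3 55.7 and 58.3 kb against 38.8 and 44.8 kb.

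In Tenm1, 6 of 18 inside regions were mutant-only, 33.3% with an exact interval of 13.3% to 59.0%, and 1 was control-only. Over all bodies on the X chromosome 10.8% of regions were mutant-only and 3.03% control-only. Tenm2 had 22 mutant-only and 3 control-only of 160 regions, or 13.8% (8.82% to 20.1%) mutant-only. Tenm3 had 23 and 7 of 180, or 12.8% (8.28% to 18.6%). Tenm4 had 13 and 4 of 155, or 8.39% (4.54% to 13.9%), the lowest share of the 4 teneurins, with intervals that overlap those of Tenm2 and Tenm3. With equal numbers of peaks the mutant-only and control-only counts were 5 and 2 in Tenm1, 15 and 5 in Tenm2, and 11 and 6 in Tenm4. They were 11 and 12 in Tenm3, so there the excess of mutant-only regions turned round. In Tenm4 it turned round without control library 1 (20 mutant-only and 24 control-only) and without control library 2 (22 and 24), and stayed without Hoxa5-deficient library 1 (29 and 5) or 2 (32 and 8). In long bodies the mutant-only and control-only shares also drew closer without a control library. They were 17.5% and 13.4% without control library 1 and 18.2% and 14.1% without control library 2. In Tenm3 the counts were 42 and 12, 40 and 10, 30 and 20, and 32 and 21 without Hoxa5-deficient libraries 1 and 2 and control libraries 1 and 2, and in Tenm2 they were 45 and 6, 36 and 5, 34 and 14, and 29 and 20.

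**Figure D3:**
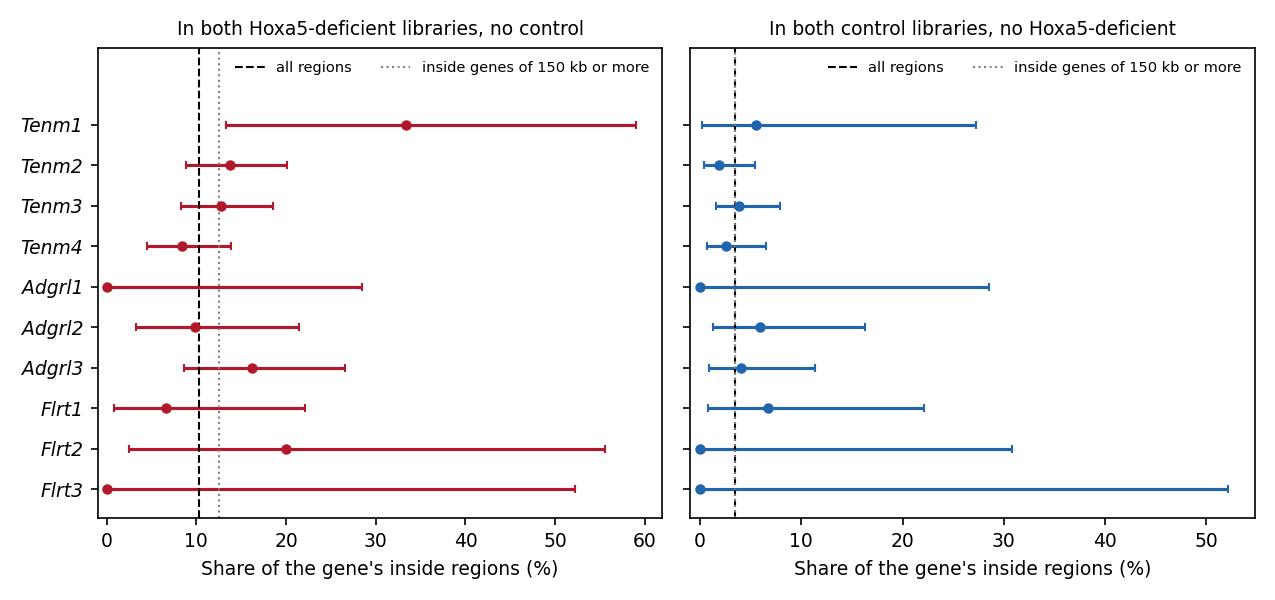
Share of each gene's inside regions that were mutant-only (left) or control-only (right), with exact 95% intervals that cover counting error only; the dashed line is the share over all regions and the dotted line that inside bodies of 150 kb or more. The interval of Tenm1 on the left, 13.3% to 59.0%, is the only one that lies above both lines.

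The strongest mutant-only region of Tenm4, chr7:96334073-96335016, lies 163.3 kb into the gene and had 69 and 128 tags at its summit in Hoxa5-deficient libraries 1 and 2. It stood at percentiles of 81.3 and 87.7 of those libraries' whole lists and had no peak in either control. In Tenm3, chr8:48414248-48415080 had 61 and 123 tags and percentiles of 78.3 and 85.7, again with no control peak. Tenm1 had chrX:42530350-42531098, in the last 3 kb of the gene, with 47 and 50 tags at 74.4 and 69.9. In Tenm4 and Tenm3 library 2 had more tags than library 1, and in Tenm1 the libraries were close. The strongest of Tenm2, chr11:36453931-36454763, had 37 and 46 tags at 67.4 and 67.5.

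Control-only regions of the teneurins were weaker. In Tenm4, chr7:96389941-96390534 had 29 and 22 tags in the controls, at percentiles of 56.6 and 50.7. In Tenm3, chr8:48615053-48615399 had 28 and 23 tags at 55.4 and 52.4. Those of Tenm2 (chr11:37115276-37115620) and Tenm1 (chrX:42540787-42541024) had 24 and 17 tags and 25 and 14 tags. Over the 10 genes, the weaker of the 2 percentiles had a median of 23.2 in mutant-only regions (range 0.237 to 81.3) and 16.8 in control-only regions (highest 52.4). It was 27.1 and 25.4 over all regions of these classes. The lowest percentile over the 4 libraries had a median of 37.2 for the 179 shared inside regions, below 49.1 for shared regions in long bodies and 58.9 for all shared regions. Mutant-only and control-only regions of these genes thus sat mostly in the weaker part of the lists.

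Distances to shared regions varied widely in each class. The median distance to the nearest region with a peak in all 4 libraries was 9.34 kb for the 85 mutant-only regions, of which 26 lay within 5 kb (range 0.684 to 354.7 kb). It was 5.26 kb for the 23 control-only regions, of which 11 lay within 5 kb (range 0.702 to 42.2 kb), and 5.27 kb for the 47 regions with a peak in 1 library of each genotype. In bodies of 150 kb or more the medians were 12, 7.01 and 8.26 kb for the same classes. The difference between classes was not tested. Summed over the 4 teneurins, regions were more numerous towards the 3′ end. Bodies were cut into 3 equal parts from the 5′ end, and these held 116, 165 and 232 regions, of which 14, 23 and 27 were mutant-only. Tenm2, Tenm3 and Tenm4 each had this order, and Tenm1 held 7, 3 and 8 regions. In Tenm4 the 3 parts held 1, 4 and 8 mutant-only regions of 38, 44 and 73. Summed over the latrophilins the order was the opposite, with 55, 45 and 36 regions.

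**Figure D4:**
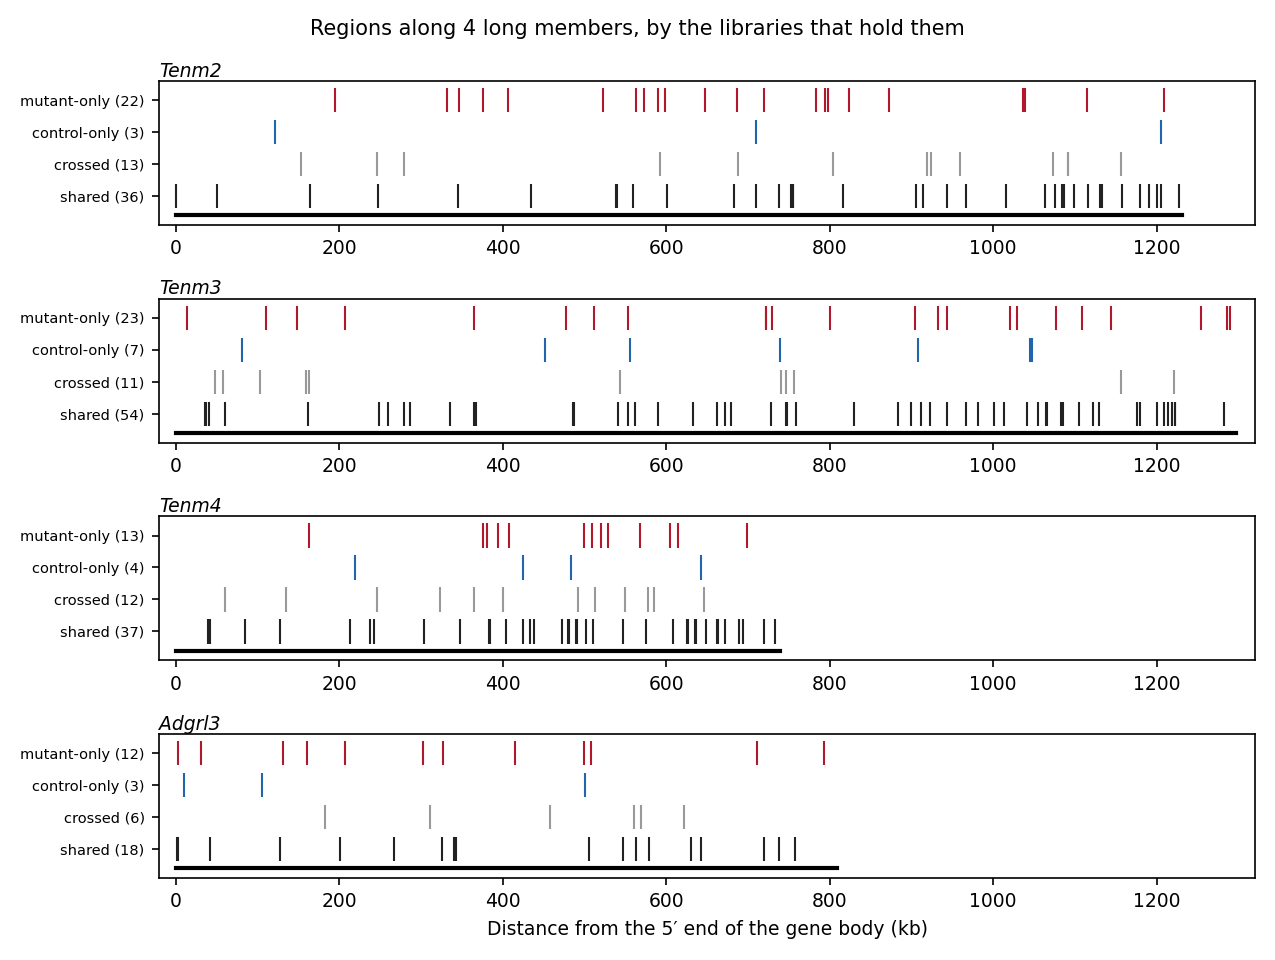
Regions along Tenm2, Tenm3, Tenm4 and Adgrl3 by distance from the 5′ end of the body in kb, in rows for mutant-only (red), control-only (blue), 1 library of each genotype (grey) and all 4 libraries (black), with the number of each in brackets. Mutant-only regions are scattered along the bodies, and Tenm4 has 1 in the first part of 3 and 8 in the last.

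Among the 179 shared inside regions, 53 ranked higher in Hoxa5-deficient neurons and 33 lower by the rule above. Over all 65789 shared regions 19.8% were called higher and 21.2% lower, inside protein-coding bodies 17.7% and 18.8%, and in bodies of 150 kb or more 28.2% and 20.1%. The 53 and 33 were 29.6% and 18.4% of the 179, near the shares of long genes. The median difference in rank, Hoxa5-deficient minus control, was 2.55 points inside the 10 genes (range −48.9 to 58.3), with 96 of 179 above 0; it was −0.529 over all shared regions and 1.19 in long bodies. Of the 28 shared regions outside the bodies 5 were called higher and 5 lower, where 17.5% and 25.8% of all shared regions outside bodies were, and their median difference was 0.0353. As a description of the 207 shared regions, Spearman's rho of the ranks was 0.891 between the Hoxa5-deficient libraries, 0.840 between the controls and 0.534 to 0.630 across genotypes. The libraries share the set of regions and their base composition, and over all 65789 regions the values were 0.942, 0.924 and 0.744 to 0.796. With a gap of 20 points in place of 10, 36 of the 207 regions inside and outside were called higher and 24 lower, against 58 and 38. Over all shared regions that gap called 12.2% higher and 10.8% lower. With a stricter peak threshold, −log10 q at 5 or above, the counts were 26 and 15. Of all shared regions 18.0% were called higher and 19.3% lower at that threshold.

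**Figure D5:**
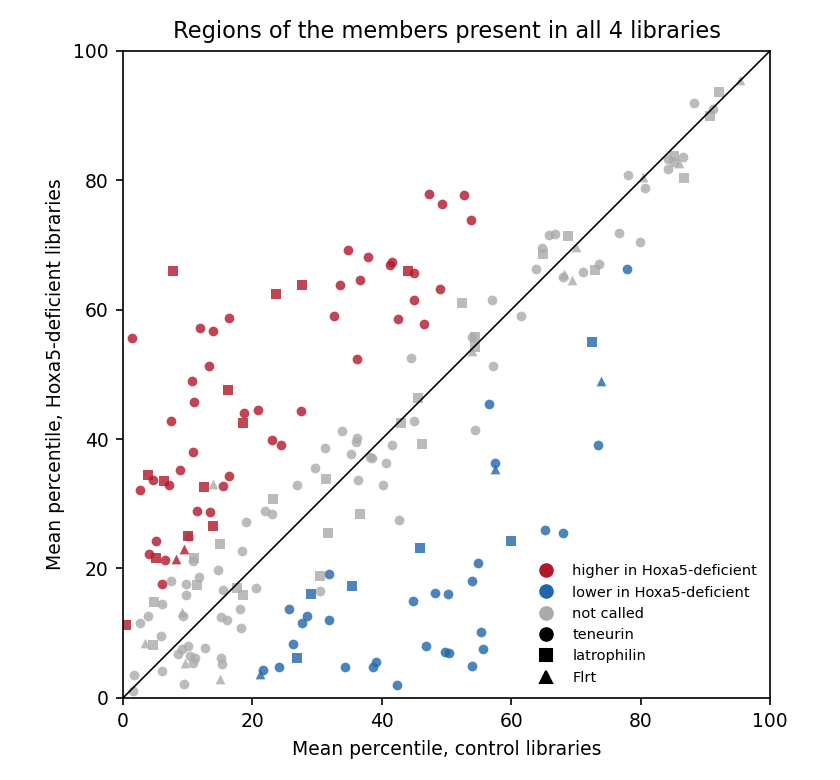
Mean percentile of the 207 shared regions of the 10 genes in Hoxa5-deficient libraries (vertical axis) and in controls (horizontal axis), with circles for teneurins, squares for latrophilins and triangles for Flrt genes; red regions were called higher and blue ones lower. The strongest regions lie near the diagonal. The 58 higher and 38 lower regions reach from weak ranks to upper ones, such as a Flrt3 region called lower at 78.6 and 69.2 in controls.

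Calls in each teneurin are set beside those in bodies of 150 kb or more, where 28.2% of shared regions were higher and 20.1% lower. Inside Tenm2 13 shared regions were called higher and 5 lower of 36 (36.1% and 13.9%), with a median difference of 5.94 points. Inside Tenm3 19 were higher and 12 lower of 54 (35.2% and 22.2%), with a median of 4.66. Inside Tenm4 8 were higher and 9 lower of 37 (21.6% and 24.3%), with a median of −3.49. Inside Tenm1 0 of 2 were called. Differences between these genes were not tested. The largest higher call of the teneurins lay 4.72 kb beyond the 3′ end of Tenm3, at chr8:48220724-48221162. It ranked at 47.0 and 64.1 in Hoxa5-deficient libraries, with 48 and 103 tags, against 2.78 and 0.0296 in controls, with 22 and 14 tags. The groups were far apart, by 54.2 points in their means. The largest lower call, chr8:48392459-48393283 inside the same gene, ranked at 5.53 and 4.46 with 16 and 18 tags in Hoxa5-deficient libraries, against 60.2 and 47.5 with 53 and 33 tags in controls. This difference of −48.9 points was close in size to the higher one.

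Tenm4 and Tenm2 likewise held large calls in both directions. In Tenm4, chr7:96672277-96672989 ranked at 9.38 and 5.69 in Hoxa5-deficient libraries against 61.8 and 49.3 in controls, with 18 and 19 tags against 64 and 41. Also in Tenm4, chr7:96413963-96414932 ranked at 60.2 and 54.1 against 18.3 and 5.36, with 61 and 75 tags against 22 and 15. The controls were apart from each other in the second region, yet both lay below both Hoxa5-deficient libraries. In Tenm2, chr11:36526435-36526720 ranked at 5.53 and 8.38 against 50.5 and 50.4. The largest higher call of Tenm2, chr11:36150581-36151203, ranked at 55.9 and 57.3 against 0.540 and 27.4.

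The open 5′ end of Tenm2 (chr11:37235814-37237100), 292 kb from the start that RefSeq lists, was the strongest region of that gene. It had 335 and 420 tags in Hoxa5-deficient libraries against 215 and 203 in controls, and percentiles of 93.0 and 91.0 against 87.1 and 89.4. The groups did not overlap, but the difference of 3.78 points fell short of the 10 that the rule asks. Tenm3 had no region within 1 kb of its listed start or of the 5′ end of its body. At the 5′ end of Tenm1 (chrX:43428770-43429319) the percentiles were 41.3 and 44.3 against 38.8 and 51.1, so the groups overlapped. The first listed start of Tenm4 had a weak region (chr7:96171164-96171906) with 15 and 18 tags in Hoxa5-deficient libraries, no peak in control library 1 and 16 tags in control library 2.

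The latrophilins differed in how much they held, and Adgrl3, with the most regions, had the fewest per length. Adgrl3, a latrophilin that acts on the postsynaptic side in the hippocampus, had 50 and 50 regions inside its body of 808.7 kb on chromosome 5 in Hoxa5-deficient libraries and 35 and 34 in controls. Adgrl2, a close relative with a like role, had 27 and 29 against 27 and 23 over 173.5 kb on chromosome 3. Adgrl1, first known as the receptor of the spider toxin α-latrotoxin, had 6 and 7 against 6 and 5 over 41.9 kb on chromosome 8. The groups were apart for Adgrl3 and shared a value for Adgrl1 and Adgrl2. Per 100 kb, Adgrl3 had 6.18 and 6.18 regions against 4.33 and 4.20 in controls. Adgrl2 had 15.6 and 16.7 against 15.6 and 13.3, and Adgrl1 14.3 and 16.7 against 14.3 and 11.9. Adgrl3 had 12 mutant-only and 3 control-only of 74 regions (16.2% mutant-only, exact interval 8.67% to 26.6%). Adgrl2 had 5 and 3 of 51 (9.80%, 3.26% to 21.4%), and Adgrl1 had 0 and 0 of 11, which allows up to 28.5%. With equal numbers of peaks Adgrl3 had 6 and 4 and Adgrl2 3 and 3. Adgrl2 had 6 mutant-only and 9 control-only regions without control library 1 and the same counts without control library 2, so its excess turned round, and 14 and 5 or 10 and 3 without Hoxa5-deficient library 1 or 2. The shares in long bodies also drew closer without either control library, as given above. Adgrl3 had 20 and 3, 22 and 5, 14 and 6, and 18 and 9 in the same 4 cases, ordered from Hoxa5-deficient library 1 to control library 2.

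Around the start of Adgrl3 lay 3 neighbouring regions. The main one, chr5:81019442-81021116, which spans the first and the second listed start, had 199 and 292 tags in Hoxa5-deficient libraries and 247 and 229 in controls. Its percentiles were 79.8 and 80.8 against 85.8 and 87.6, lower in both Hoxa5-deficient libraries by a mean of 6.36 points, which is short of a call. The next, chr5:81021292-81021930, at the third listed start, had 74 and 93 tags against 65 and 43. It was called higher, at percentiles of 26.5 and 23.5 against 18.5 and 1.58. The one after it, chr5:81022032-81022676, was the strongest mutant-only region of the gene, with 78 and 99 tags, percentiles of 57.8 and 57.9 of the whole lists and no peak in the controls. The rule applies only to regions present in all 4 libraries, so the last of the 3 neighbours could not be called. Of the others the middle one was called, and the tags of the main one overlapped between the groups. Over the whole lists the middle one stood at 54.8 and 54.6 in Hoxa5-deficient libraries and 43.4 and 7.86 in controls.

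Further in, Adgrl3 held the largest higher call of all 10 genes. Region chr5:81597712-81598569, 579.1 kb into the gene, had 83 and 88 tags in Hoxa5-deficient libraries and 15 and 16 in controls. Its percentiles were 71.6 and 60.4 against 3.73 and 11.6, a mean difference of 58.3 points. Both control values were at the weak end of their lists, and the groups were far apart. In all 7 of the 18 shared inside regions were called higher and 2 lower, with a median difference of 8.72 points. These were 38.9% and 11.1%, beside 28.2% and 20.1% in bodies of 150 kb or more. The larger of the lower calls, chr5:81344332-81344759, ranked at 3.93 and 8.38 against 36.6 and 17.2. A control-only region 9.96 kb into the gene, chr5:81028883-81029204, had 26 and 22 tags in controls 1 and 2.

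In Adgrl2 the 5′ end of the body carried 2 neighbouring regions. The larger, chr3:148988334-148990611, stood at 83.9 and 83.7 in Hoxa5-deficient libraries against 83.7 and 86.5 in controls. Its neighbour 1.17 kb into the gene, chr3:148987652-148988194, was called lower, at 54.4 and 55.5 against 71.7 and 73.2, with 122 and 169 tags against 172 and 148. The tag counts of the groups overlapped although the percentiles did not. Near the 3′ end, chr3:148831814-148832458 was called higher, at 62.2 and 62.5 against 25.9 and 21.3. Upstream of the gene, chr3:149042251-149043033 was called lower, at 25.6 and 22.8 against 60.5 and 59.5. Inside Adgrl2 4 of 12 shared regions were called higher and 2 lower. These were 33.3% and 16.7%, beside 28.2% and 20.1% in bodies of 150 kb or more. Outside Adgrl2 1 was called higher and 2 lower, among 27 regions of which 4 were mutant-only and 2 control-only.

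Adgrl1 had no called region inside its body. The region over its listed start (chr8:83898976-83900669) had 397 and 563 tags in Hoxa5-deficient libraries and 355 and 360 in controls, and percentiles of 90.3 and 89.6 against 89.6 and 91.7. Its highest-ranked region, 24.9 kb upstream (chr8:83874550-83875943), stood at 93.3 and 93.9 against 92.3 and 91.7. Inside the gene 0 of 3 shared regions were called in either direction. A weaker region 79.2 kb upstream, chr8:83820466-83821296, was called higher at 35.9 and 49.1 against 17.1 and 19.8.

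The Flrt genes had few regions in number, but Flrt3 and Flrt1 had the most per length of the 10 genes. Per 100 kb, Flrt3 had 30.1 and 22.6 regions in Hoxa5-deficient libraries against 22.6 and 30.1 in controls. Flrt1 had 21.6 and 30.5 against 25.4 and 24.1, and Flrt2 7.51 and 6.44 against 5.36 and 3.22. All protein-coding bodies had 6.27 and 6.85 against 5.86 and 5.62. Flrt3, a binding partner of latrophilins and of Unc5 receptors, had 4 and 3 regions in Hoxa5-deficient libraries and 3 and 4 in controls over 13.3 kb on chromosome 2. Its start region had 411 and 527 tags against 377 and 336, at the percentiles given above. A region 2.96 kb into the gene, chr2:140668343-140668692, was called lower, at 50.4 and 47.4 against 78.6 and 69.2, with 86 and 108 tags against 160 and 104, which overlap. One 0.827 kb into the gene, chr2:140670420-140670879, was called higher, at 20.9 and 25.05 against 13.4 and 5.30. Flrt3 thus had 3 shared regions, 1 not called, 1 lower and 1 higher, and no mutant-only or control-only region among its 5.

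Flrt2, a repulsive cue for neurons that carry Unc5d, had 7 and 6 regions against 5 and 3 over 93.2 kb on chromosome 12, of which 2 of 10 were mutant-only and 0 control-only. The stronger of these, chr12:95766950-95767509, had 16 and 20 tags. Its start region, chr12:95691971-95692366, was weak at 1.72 and 9.005 against 11.7 and 7.38, while the strongest, chr12:95694879-95696142, lies 2653 bp from the listed start and stood at 82.7 and 78.2 against 81.6 and 79.2. Outside Flrt2 3 of 8 regions were mutant-only, and the strongest, chr12:95636391-95637178, had 45 and 57 tags at percentiles of 73.2 and 73.4 of the whole lists. None of the 3 shared regions of Flrt2 was called.

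Flrt1, the third member of the family, had 17 and 24 regions in Hoxa5-deficient libraries against 20 and 19 in controls over 78.7 kb on chromosome 19, with 2 mutant-only and 2 control-only of 30. The groups overlapped. With equal numbers of peaks it had 0 mutant-only and 4 control-only regions. Of its 11 shared regions 1 was called higher and 2 lower, where 17.7% and 18.8% of those inside any protein-coding body were. The largest call of Flrt1, chr19:7134297-7136305, ranked at 32.1 and 38.6 against 59.0 and 56.0. At the end of its body, chr19:7164683-7166482 stood at 69.1 and 70.3 against 72.4 and 67.7, and its top region, chr19:7103709-7104872, at 80.8 and 84.4 against 85.0 and 86.8. The table used here gives no strand for Flrt1.

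Counts for 17 partner genes are given beside those of the 10 genes. The partner proteins bind or resemble those of the 10 genes, apart from Gpc3, which was listed as a partner of Unc5 receptors. Inside the bodies of the 17 genes 106 of 772 regions were mutant-only, or 13.7%, and 22 control-only, 4.82 mutant-only regions for each control-only one. In bodies of 150 kb or more 12.5% were mutant-only, with a ratio of 3.63. Nrxn3, a neurexin of the presynaptic membrane, had 28 mutant-only and 7 control-only regions, and Robo1, a guidance receptor that binds Flrt3, had 24 and 3. Unc5d, the Flrt2 receptor, had 13 and 1. Of the 252 shared regions inside these genes 66 were called higher (26.2%) and 63 lower (25%), against 29.6% and 18.4% in the 10 genes, 28.2% and 20.1% in bodies of 150 kb or more and 19.8% and 21.2% over all shared regions. The difference between the gene groups was not tested.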

How the data were processed

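ATAC-seq peaks were analysed from 4 lists, 1 per library, 2 Hoxa5-deficient and 2 control, grouped by the genotype in the labels. The build was mm10 and the tools were MACS2 2.2.4, SAMtools 1.9, Bowtie2 2.3.4.3 and FastQC 0.11.9, per the submitters' processing notes; the peak threshold and any shift for Tn5 are not given in the sources used here. In the deposited narrowPeak layout each peak has a score capped at 1000, a fold enrichment ratio over its library's background, and its p-value and q-value, both as −log10. The authors called each library separately. Between 323 and 363 peak numbers are missing per deposited list. Fold and p are the authors' values and served to order or select peaks inside 1 list, and to recover the tag pileup and background behind a summit (whole for 100% of 20000 summits per library, tolerance 0.01 in −log10 p).

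Python 3.11.15, pandas 2.3.3, NumPy 2.4.6 and SciPy 1.17.1 were used. Intervals were merged at 1 bp overlap and assigned to 21883 protein-coding bodies of GRCm38.p6 from a RefSeq table; start windows and strands came from RefSeq. The genes, the partner list, the tests and the alternatives were chosen with earlier results of these data known. Named regions were, per gene, the region at a start or body end, the strongest mutant-only and control-only region inside, and the largest call in each direction; the highest-ranked shared region of each gene, the control-only region of Adgrl3 and the outside region of Flrt2 were named as well. The ranking and calling were tested on simulated data. No test over libraries other than the exact permutation test of the share of regions was made. Alternatives were a stricter q, equal numbers of peaks, summit windows of 100 bp, another ranked value, another window and gap, a replicate block and leaving out each library. Peak sequences were not used here, and some partner genes that the naming rule covers are not reported here. The labels give no pairing of same-numbered libraries.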

Additional observations from a re-analysis of the deposited data

How the results depend on the processing

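Counts of mutant-only and control-only regions depend on how many weak peaks each list holds. With equal numbers of peaks the inside regions were 52 mutant-only and 36 control-only, against 85 and 23 as reported, and 7 mutant-only ones lay outside, against 11. With −log10 q of 5 or more, 7 mutant-only regions lay outside, 26 shared regions ranked higher and 15 lower, against 58 and 38. Of all shared regions 18.0% were then called higher and 19.3% lower. The mutant-only share inside rose to 20.8%, and that in long bodies to 18.1%. A window of 50 kb left 4 mutant-only outside regions. A gap of 20 points left 36 higher and 24 lower calls, where 12.2% and 10.8% of all shared regions were called. Ranking within whole lists moved the median difference to 4.50 points, from 1.84, and the median over all shared regions to 1.22, from −0.529. Leaving out each library in turn gave 118 to 172 mutant-only and 34 to 92 control-only regions inside, 13 to 18 and 4 to 14 outside, 68 to 79 higher and 42 to 57 lower calls, and a median of 0.262 to 2.50 points. Long bodies then had 17.5% to 28.7% mutant-only and 5.48% to 14.1% control-only regions. Of all shared regions 21.7% to 23.0% were then called higher and 23.3% to 25.2% lower. The lowest median came without control library 1 and the highest without control library 2. Summit windows lowered that median to 0.413 points. Other counts stayed within 1.5 times under the alternatives not named here. For single genes, mutant-only regions were outnumbered in Tenm3 and Flrt1 with equal numbers of peaks, in Tenm4 and Adgrl2 without either control library, in Flrt1 without Hoxa5-deficient library 2 or control library 2, in Adgrl1 without control library 2 and in Flrt3 without control library 1. Of 140 values for single genes under the alternatives, 69 stayed within 1.5 times and 71 moved, and the cause was not tested. With the replicate number as a block, 46 regions ranked higher and 31 lower and the median stayed at 1.84. Over all shared regions the block called 15.3% higher and 15.3% lower. Ranks of same-numbered libraries did not deviate together (correlation −0.00338 over all shared regions). With 2 libraries a group this cannot show that they were unpaired, and the labels give no pairing. A region without a peak in a library is one below the threshold there and not one shown to be closed.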

Other observations

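Beyond 100 kb a further 487 regions had 1 of the 10 genes as their nearest protein-coding body, and they were not counted above. Of these, 105 were mutant-only (21.6%) and 11 control-only (2.26%), beside 16.2% and 3.01% over all 33798 regions that lie over 100 kb from any body. Adgrl2 was nearest to 131 of them, with 32 mutant-only and 4 control-only, and Tenm3 to 88, with 20 and 2. Flrt2 had 16 mutant-only and 1 control-only of 66, Adgrl3 13 and 0 of 54, Tenm2 13 and 2 of 63, and Tenm4 11 and 2 of 85. None of the 487 was nearest to Tenm1, Adgrl1, Flrt1 or Flrt3. At the edge of the window, the last region counted lay 99.7 kb from Adgrl2 and stood at percentiles of 38.5 and 53.3 of the whole lists in Hoxa5-deficient libraries and 59.6 and 58.0 in controls. The first left out lay 101.2 kb from Adgrl2, at 54.9 and 70.2 against 45.5 and 30.7.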
